A study of Mus musculus with 8 samples.

Results

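The transcripts of 9 genes of the middle of the triplicated mouse chromosome 16 segment were followed in the hippocampus of Ts1Cje and wild-type mice. Of these genes, 5 act in small-molecule or lipid metabolism (Slc5a3, Cbr1, Cbr3, Hlcs and Pigp) and 4 act on proteins or on membrane traffic (Ttc3, Get1, Vps26c and Dop1b). Get1, Vps26c and Dop1b carry the older names Wrb, Dscr3 and Dopey2. The members were chosen as all non-control array probes whose RefSeq accession maps to one of these 9 symbols, out of 20660 symbols with a probe on the array. That gave 14 probes, 2 each for Slc5a3, Hlcs, Pigp, Ttc3 and Dop1b and 1 each for the other 4 genes.

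Total RNA of the hippocampus came from 3-month-old mice labelled C57BL6/J, 4 of genotype Ts1Cje and 4 wild-type, and was hybridised to 1 one-colour array per mouse. Ts1Cje mice model Down syndrome: a translocation gives them an additional copy of chromosome 16 from Sod1 to Zbtb21 in all cells. In these mice 1 Sod1 copy is disrupted and the distal end of 1 chromosome 12 is lost through the translocation, so the 9 genes are not the only difference from the wild-type controls, which are disomic littermates per the series' description. On the arrays, 59.9% to 63.1% of probes were well above background, and Pearson's r between arrays ranged from 0.992 to 0.996 across probes, which are not independent replicates. All 12 listed markers of dentate granule cells, CA1 and CA2 and CA3 passed the filter on dim probes. Of the markers of 11 cell types or regions, Pcp4, which is itself triplicated, was the only one that passed the test. An unadjusted limma p under 0.05 was also found for C1ql2 (log2 difference -0.25), Wfs1 (0.3), Fibcd1 (-0.19), Rspo1 (0.56) and Mbp (-0.27). Such a p was found for 8.19% of all tested named genes. The lack of other calls does not show that the groups had equal cell composition. The mean level of the 2 tested blood markers ranged from -1.85 to 0.13 on Ts1Cje and from -1.48 to -0.03 on wild-type arrays, and its part in the results was not tested. In whole tissue, fewer cells of a type and less RNA per cell cannot be told apart.

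Slc5a3 encodes the sodium-coupled transporter that brings myo-inositol, a brain osmolyte and precursor of phosphoinositides, into cells. Cbr1 and Cbr3 encode NADPH-dependent carbonyl reductases, Hlcs the ligase that attaches biotin to carboxylases, and Pigp a subunit of the enzyme that starts the synthesis of glycosylphosphatidylinositol (GPI) anchors. Ttc3 encodes a ubiquitin ligase whose human form acts on Akt, Get1 a receptor subunit for the insertion of tail-anchored proteins into the endoplasmic reticulum, Vps26c a subunit of the retriever complex of endosomal recycling, and Dop1b a relative of yeast Dop1, which acts with Mon2 in traffic between endosomes and Golgi.

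Every member was higher on average in Ts1Cje, on all 14 probes, and the median fold was 1.39. Levels are given as log2 of the processed signal relative to the 75th percentile of the same array, and differences as Ts1Cje minus wild type on that scale, where 3 copies over 2 would give 0.58. A probe was called when its Benjamini-Hochberg adjusted p over all 32596 tested probes was under 0.05 in limma. Of the 14 probes 7 were called, in 6 of the 9 genes: Cbr1, Hlcs, Pigp, Ttc3, Vps26c and Dop1b. No member probe was called lower. The background was 0.169% of all tested probes called higher and 0.0184% called lower, and 38.0% higher of the other 79 probes of genes from Sod1 to the distal end of the chromosome. The lowest Ts1Cje array exceeded the highest wild-type array on 11 member probes, in 8 of the 9 genes, which held for 2.41% of all tested probes. The exception was Slc5a3.

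**Figure D1:**
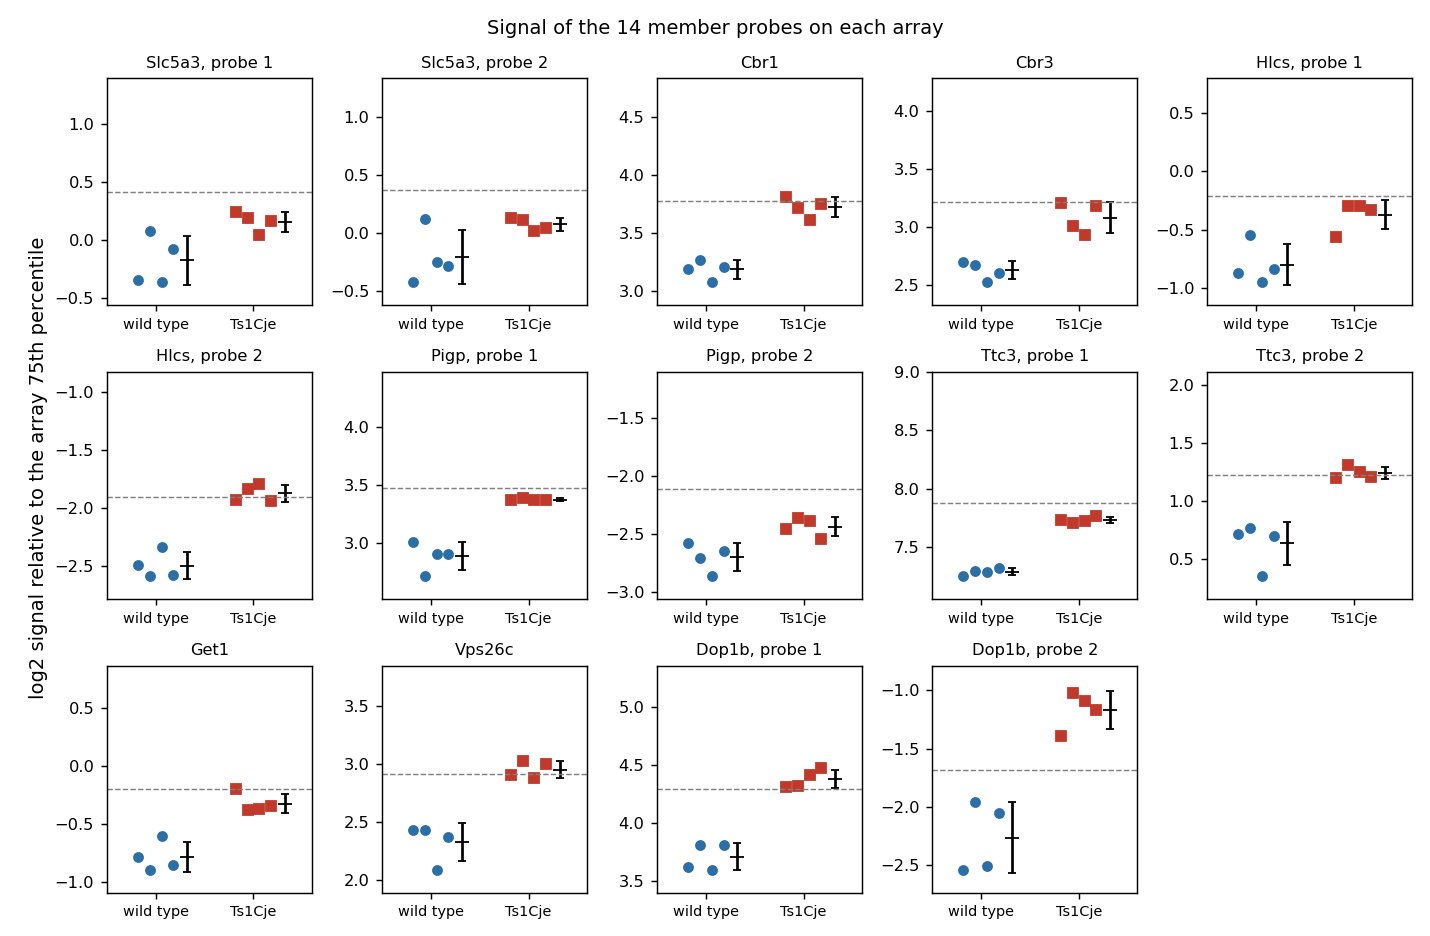
Level of each member probe on each array, as log2 signal relative to the array's 75th percentile, with wild-type arrays as circles and Ts1Cje arrays as squares, replicates 1 to 4 from left to right. The cross and bar beside each group are its mean and SD (n = 4), and the dashed line is the wild-type mean plus 0.58. The groups overlap for both Slc5a3 probes and for Hlcs probe 1 only.

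Slc5a3 had the smallest difference among the 9 genes by their brightest probe, and it was not called. Probe 1, printed in 10 spots per array, read -0.34, 0.08, -0.36 and -0.08 on wild-type arrays 1 to 4, and 0.24, 0.19, 0.04 and 0.16 on Ts1Cje arrays 1 to 4. Wild-type replicate 2 lay above Ts1Cje replicate 3, so the groups overlapped. The difference was 0.33 (SE 0.11, 95% interval 0.09 to 0.57), 1.26-fold, with a limma adjusted p of 0.456. Probe 2 read -0.42, 0.12, -0.25 and -0.28 in wild type and 0.13, 0.11, 0.02 and 0.04 in Ts1Cje. Here too the single high wild-type array was replicate 2. Its difference was 0.28 (95% interval 0.03 to 0.54), 1.22-fold, with a limma adjusted p of 0.543. Both intervals lay above 0 and below 0.58. That of probe 1 held 0.58 without the filter on dim probes and in 5 of the 8 fits that left out 1 array (wild-type replicate 2 or 4, or Ts1Cje replicate 2, 3 or 4), and that of probe 2 in 2 of the 8 (Ts1Cje replicate 3 or 4). The 10 spots of probe 1 on an array had an SD of 0.0375 to 0.0957. Each array value is the mean of these spots, and such a mean varies less than a single spot. The SD of the spots is therefore not on the same footing as that between arrays, 0.21 in wild type and 0.08 in Ts1Cje. Without wild-type replicate 2, the adjusted p of the probes was 0.28 and 0.142, so that neither was called.

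Slc5a3 overlaps Mrps6, which encodes a mitochondrial ribosomal protein, on the same strand. Its promoter is shown because both genes start within it: in RefSeq's annotation of GRCm38.p6 the 2 start sites are 14 bases apart, and their windows of 250 bases before to 50 bases after the start share 286 bases. The window, chr16:92058072-92058371 on the plus strand, has 4 GC boxes (GGGCGG on either strand), in capitals, of which the first 2 overlap by 1 base.
Slc5a3: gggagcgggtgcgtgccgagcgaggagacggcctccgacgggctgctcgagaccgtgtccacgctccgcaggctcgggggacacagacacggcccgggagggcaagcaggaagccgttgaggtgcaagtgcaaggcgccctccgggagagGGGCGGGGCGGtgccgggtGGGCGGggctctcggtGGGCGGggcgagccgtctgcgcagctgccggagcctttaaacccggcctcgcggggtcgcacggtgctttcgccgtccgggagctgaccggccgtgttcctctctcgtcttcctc
Mrps6 read 3.3, 3.53, 3.24 and 3.29 in wild type and 3.94, 3.94, 3.69 and 3.76 in Ts1Cje. The groups did not overlap, and wild-type replicate 2 was again the highest of its group. That array was also the highest wild-type array for Cbr1 (3.27) and for the mean of the 9 genes (2.32). It was the lowest for Pigp probe 1 (2.72) and for Get1 (-0.89). The difference of Mrps6 was 0.49 (95% interval 0.29 to 0.69, limma adjusted p = 0.106), and its interval held 0.58. Over the 8 arrays, the deviations of Mrps6 from its group means correlated with those of the Slc5a3 probes at 0.78 and 0.76, and those of the 2 Slc5a3 probes with each other at 0.81. Between the 2 probes of Dop1b this correlation was 0.8, of Pigp 0.3, of Ttc3 -0.1 and of Hlcs -0.32. No background over other pairs of genes is given. The probes shared the same 8 RNA samples, and these values are given as a description.

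Cbr1, which reduces quinones, prostaglandins and other carbonyl compounds in the cytosol, read 3.19, 3.27, 3.08 and 3.21 in wild type and 3.81, 3.72, 3.61 and 3.75 in Ts1Cje. The lowest Ts1Cje array was 0.34 above the highest wild-type array. The difference was 0.53 (SE 0.06, 95% interval 0.38 to 0.68), 1.45-fold, and was called (limma adjusted p = 0.022). Its neighbour and paralog Cbr3 read 2.7, 2.68, 2.53 and 2.61 in wild type and 3.21, 3.01, 2.93 and 3.18 in Ts1Cje. These groups were also apart, by 0.23. The Cbr3 difference of 0.45 (SE 0.08, 95% interval 0.27 to 0.63), 1.37-fold, missed the threshold (limma adjusted p = 0.0986). It was called after normexp background correction (adjusted p = 0.0336) and with a trended and robust prior (adjusted p = 0.0229). For both genes the interval held 0.58. Cbr4, another carbonyl reductase, on chromosome 8, differed by 0.07 and -0.07 on its 2 probes, with overlapping groups and intervals that held 0 and lay below 0.58.

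The promoter windows of the neighbours are shown because they differ in base composition. That of Cbr1 (chr16:93607587-93607886, plus strand) held 11 CG dinucleotides and that of Cbr3 (chr16:93682969-93683268, plus strand) held 19, each in capitals. These were among the 3 of the 14 member windows with fewer than 20.
Cbr1: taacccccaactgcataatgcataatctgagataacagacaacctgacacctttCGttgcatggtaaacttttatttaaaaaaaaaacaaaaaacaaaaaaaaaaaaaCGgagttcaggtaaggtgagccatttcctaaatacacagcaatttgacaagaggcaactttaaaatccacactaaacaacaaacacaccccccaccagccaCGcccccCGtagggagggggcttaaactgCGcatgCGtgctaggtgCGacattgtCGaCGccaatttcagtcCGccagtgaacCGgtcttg
Cbr3: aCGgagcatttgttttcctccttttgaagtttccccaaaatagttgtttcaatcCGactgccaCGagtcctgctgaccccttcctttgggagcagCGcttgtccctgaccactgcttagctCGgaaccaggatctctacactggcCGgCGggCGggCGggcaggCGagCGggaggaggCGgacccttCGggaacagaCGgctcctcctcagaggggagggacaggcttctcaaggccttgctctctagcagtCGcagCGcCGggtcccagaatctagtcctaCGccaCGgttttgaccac
Neither window held the letters TGACNNNGC of an antioxidant response element on either strand, which 12.4% of all windows of this length hold, and which says nothing of the factor that binds it.

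Hlcs was called on 1 of 2 probes. Probe 1, the brighter, read -0.87, -0.55, -0.95 and -0.84 in wild type and -0.56, -0.3, -0.3 and -0.33 in Ts1Cje. The groups overlapped by 0.01, at Ts1Cje replicate 1 and wild-type replicate 2. The difference was 0.43 (SE 0.1, 95% interval 0.2 to 0.66), 1.35-fold, and was not called (limma adjusted p = 0.268). Probe 2 read -2.49, -2.58, -2.33 and -2.57 in wild type and -1.93, -1.83, -1.79 and -1.94 in Ts1Cje, with no overlap. Its difference was 0.62 (SE 0.07, 95% interval 0.46 to 0.78), 1.54-fold, with a limma adjusted p of 0.0193. After normexp background correction it was 0.39, still called (adjusted p = 0.0144). With quantile normalization or the array median as centre it was not called (adjusted p = 0.0517 and 0.0846). Both intervals held 0.58, but neither did after normexp background correction, with differences of 0.34 and 0.39.

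Pigp had 2 probes assigned to different transcripts. Probe 1 read 3.01, 2.72, 2.91 and 2.91 in wild type and 3.37, 3.39, 3.37 and 3.37 in Ts1Cje. The Ts1Cje arrays were nearly equal, with an SD of 0.01 against 0.12 in wild type, and the groups were 0.36 apart. The difference was 0.48 (SE 0.06, 95% interval 0.34 to 0.63), 1.4-fold, and was called (limma adjusted p = 0.0396). With the array median as centre or the slide row as a block it was not called (adjusted p = 0.113 and 0.0792). Probe 2 read -2.58, -2.71, -2.86 and -2.65 in wild type and -2.46, -2.36, -2.39 and -2.54 in Ts1Cje. The gap between these groups was only 0.04. Its difference of 0.26 (SE 0.07, 95% interval 0.09 to 0.43), 1.2-fold, was not called (limma adjusted p = 0.374) and was the smallest of the 14. The interval of probe 2 lay above 0 and below 0.58, that of probe 1 held 0.58, except on omission of wild-type replicate 2.

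Ttc3, a ubiquitin ligase with tetratricopeptide repeats, had the smallest standard error of the 14 probes on its probe 1. That probe read 7.25, 7.29, 7.28 and 7.32 in wild type and 7.73, 7.7, 7.72 and 7.76 in Ts1Cje. Within each group the arrays differed by less than 0.1, and the groups were 0.38 apart. The difference was 0.44 (SE 0.04, 95% interval 0.34 to 0.54), 1.36-fold, and was called (limma adjusted p = 0.0112), with an interval wholly below 0.58. With the array median as centre it was 0.39 and not called (adjusted p = 0.0628). Probe 2 read 0.72, 0.77, 0.36 and 0.7 in wild type and 1.2, 1.31, 1.25 and 1.21 in Ts1Cje. The groups did not overlap, and wild-type replicate 3 lay low. The difference was 0.61 (SE 0.09, 95% interval 0.39 to 0.82), 1.52-fold, and was not called (limma adjusted p = 0.063). It was called without wild-type replicate 3 (adjusted p = 0.0263). With all 8 arrays it was called in 4 of 9 alternative settings, from an adjusted p of 0.0138 (trended and robust prior) to 0.0488 (array median as centre).

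Ttc3 and Pigp lie head to head, and the Ttc3 window is shown because it also covers starts of Pigp. On chr16:94370489-94370788, plus strand, it held 3 matches to the NRF1 element (either strand), in capitals.
Ttc3: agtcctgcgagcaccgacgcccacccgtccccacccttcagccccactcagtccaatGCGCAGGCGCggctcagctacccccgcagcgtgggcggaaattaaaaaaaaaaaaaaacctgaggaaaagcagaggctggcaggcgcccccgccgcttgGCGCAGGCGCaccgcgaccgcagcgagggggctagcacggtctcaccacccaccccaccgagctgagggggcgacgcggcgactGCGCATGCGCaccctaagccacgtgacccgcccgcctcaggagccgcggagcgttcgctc
Of the 4 annotated Pigp starts, on the opposite strand, it covers those 29 and 189 bases from the Ttc3 start. The window of the latter shared 288 bases with that of Ttc3. The NRF1 element was found in 6 of the 14 member windows, of 4 genes (Hlcs, Pigp, Ttc3 and Get1), and in 4.6% of all 32851 windows of this length. Every Pigp match lies on the bases of a Ttc3 match. The windows of Ttc3 and Pigp are therefore not separate, and the 6 counts the same sites repeatedly. A match is a description of the letters and not evidence of binding.

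Get1, which with Caml receives tail-anchored proteins at the endoplasmic reticulum, read -0.78, -0.89, -0.6 and -0.85 in wild type and -0.2, -0.38, -0.37 and -0.34 in Ts1Cje. The lowest Ts1Cje array was 0.23 above the highest wild-type array, which was replicate 3. The difference was 0.46 (SE 0.08, 95% interval 0.28 to 0.64), 1.38-fold, and missed the threshold (limma adjusted p = 0.0826). It was called without wild-type replicate 3 (adjusted p = 0.049) and with array weights (adjusted p = 0.0211). Its interval held 0.58, but not after normexp background correction, with a difference of 0.41.

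Vps26c, the retriever subunit, read 2.43, 2.43, 2.09 and 2.37 in wild type and 2.9, 3.02, 2.88 and 3 in Ts1Cje. The groups were 0.44 apart, and wild-type replicate 3 was again the lowest. The difference was 0.62 (SE 0.09, 95% interval 0.42 to 0.81), 1.53-fold, and was called (limma adjusted p = 0.0477); with the slide row as a block the adjusted p was 0.0582. Its retromer relatives, which keep 2 copies, differed little. Vps26a read 2.59, 2.53, 2.8 and 2.53 in wild type and 2.59, 2.6, 2.61 and 2.61 in Ts1Cje, a difference of -0.01 (95% interval -0.17 to 0.15) whose sign turned with quantile normalization (0.01) and array weights (0.04). Vps26b read 1.71, 1.81, 1.77 and 1.71 in wild type and 1.67, 1.67, 1.62 and 1.62 in Ts1Cje. The highest Ts1Cje array was below the lowest wild-type array, as on 1170 of the 32596 tested probes. The Vps26b difference of -0.11 (SE 0.05) was not called (limma adjusted p = 0.598).

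Dop1b had the largest difference of the 9 genes by their brightest probe. Probe 1 read 3.62, 3.81, 3.6 and 3.81 in wild type and 4.31, 4.32, 4.41 and 4.47 in Ts1Cje, groups 0.5 apart. The difference was 0.67 (SE 0.07, 95% interval 0.51 to 0.83), 1.59-fold, and was called (limma adjusted p = 0.0137), with an interval that held 0.58. Probe 2 is assigned to another transcript and read -2.54, -1.96, -2.51 and -2.05 in wild type and -1.39, -1.02, -1.09 and -1.17 in Ts1Cje. The wild-type arrays fell into a lower pair (replicates 1 and 3) and a higher pair (2 and 4) on both probes. The lower pair lay in slide column 1 and the higher pair in slide column 3, and the cause was not tested. The difference of probe 2 was 1.1 (SE 0.15, 95% interval 0.75 to 1.45), 2.14-fold, and was called (limma adjusted p = 0.0477). It was the only member interval above 0.58, and 6 of the 32596 tested probes in all had such an interval. After normexp background correction the difference was 0.77, still called (adjusted p = 0.0107), and its interval then held 0.58. With the slide row as a block it was 1.1 and not called (adjusted p = 0.0964). The paralog Dop1a, with 2 copies, had 3 probes, all with overlapping groups. The brightest differed by 0.01 (95% interval -0.13 to 0.15), a value that changed sign with quantile normalization (-0.01), the array median as centre (-0.04) and array weights (-0.0036). The second differed by -0.12 (SE 0.09), and the third by 0.55 (SE 0.42). On the third, Ts1Cje replicate 1 read -1.73 and the other Ts1Cje arrays between -3.7 and -3.58.

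**Figure D2:**
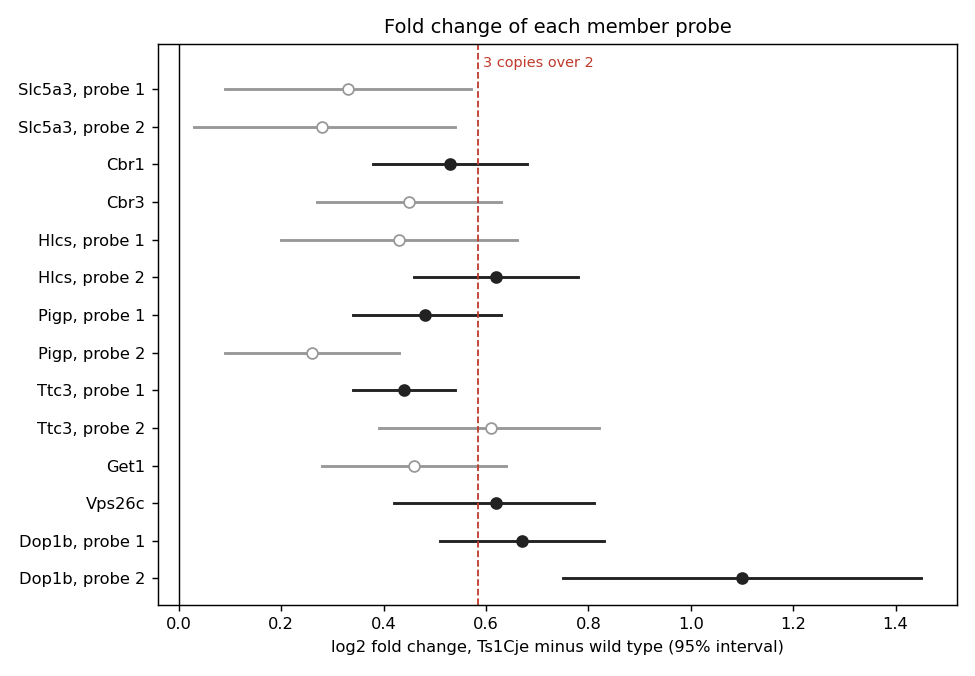
Difference of each member probe, Ts1Cje minus wild type, on the log2 scale with its moderated 95% interval. Filled points were called and open points were not, and the dashed line marks 3 copies over 2 (0.58). Of the 14 intervals 9 hold the dashed line, 4 lie below it and above 0, and that of Dop1b probe 2 lies above it.

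Set against the copy ratio, the intervals of 9 of the 14 probes held 0.58 and none held 0. The 4 below it were both Slc5a3 probes, Pigp probe 2 and Ttc3 probe 1, and the 1 above it was Dop1b probe 2. Of these, Slc5a3 and Dop1b probe 2 changed place with the settings given above, and 7 intervals held 0.58 after normexp background correction. Among the other 79 probes of genes from Sod1 to the distal end, which include Sod1 itself and a gene annotated beyond Zbtb21, 62 intervals held 0.58 (78.5%), against 10.5% of all tested probes. Of those 79 intervals 18 held 0, as did 29845 of the 32596 of all tested probes. The median difference was 0.47 over the member probes, 0.51 over those 79 probes and -0.01 over all tested probes. By the brightest probe per gene, the median was 0.46 for the 9 genes and 0.49 for the other 55 tested genes of the segment, of which 21 were called (38.2%), against 5 of the 9 and 0.199% of all named genes. No test was made of the difference between these sets.

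Where a gene had 2 probes, their differences were compared within arrays by exact permutation of the genotype labels (two-sided, 70 assignments), which cannot give a p below 0.0286. For Dop1b, probe 2 exceeded probe 1 by 0.43, and the probe 2 minus probe 1 values did not overlap between groups, from -6.17 to -5.77 in wild type and from -5.7 to -5.35 in Ts1Cje (exact p = 0.0286, adjusted over the 5 genes 0.14). After normexp background correction the excess was 0.1. The other pairs differed by -0.22 for Pigp (exact p = 0.0857, adjusted 0.21), 0.16 for Ttc3 (exact p = 0.143, adjusted 0.24), 0.19 for Hlcs (exact p = 0.229, adjusted 0.29) and -0.05 for Slc5a3 (exact p = 0.571, adjusted 0.57). No pair passed after adjustment.

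**Figure D3:**
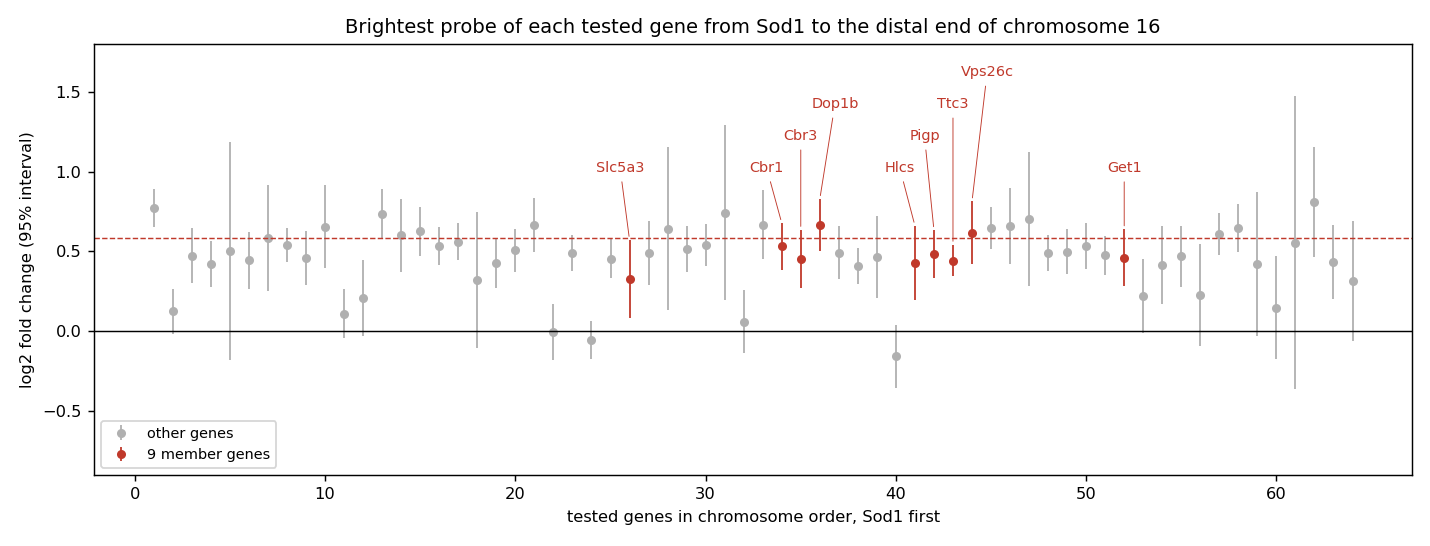
Difference of the brightest probe of each of 64 tested genes from Sod1 to the distal end of chromosome 16, in chromosome order, with its 95% interval on the log2 scale. The 9 genes are named in red, and the dashed line marks 0.58. Cbr1, Cbr3 and Dop1b are adjacent, as are Hlcs, Pigp, Ttc3 and Vps26c, and all 9 intervals lie above 0.

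Along the chromosome, the tested genes that border the members were mostly higher too. Atp5o before Slc5a3 differed by 0.45 (limma adjusted p = 0.0211), Setd4 before Cbr1 by 0.67 (adjusted p = 0.0498), Dyrk1a after Vps26c by 0.65 (adjusted p = 0.0105) and Hmgn1 before Get1 by 0.48 (adjusted p = 0.0185). All these were called. Morc3 after Dop1b differed by 0.49 and was not called (limma adjusted p = 0.0606). Sim2, a transcription factor gene before Hlcs, read -1.02, -0.88, -1.19 and -0.89 in wild type and -1.03, -1.24, -1.25 and -1.09 in Ts1Cje. Its groups overlapped, and its difference of -0.16 (95% interval -0.36 to 0.04) lay below 0.58 (limma adjusted p = 0.656). Lca5l, after Get1, differed by 0.22 with overlapping groups (95% interval -0.01 to 0.46; limma adjusted p = 0.604).

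Averaged over the brightest probes of the 9 genes, the level was 2.25, 2.32, 2.18 and 2.27 on the wild-type arrays and 2.76, 2.74, 2.7 and 2.78 on the Ts1Cje arrays. The 5 other named genes most like this profile by Pearson's r over the 8 arrays were Dyrk1a (0.9969), Ifngr2 (0.9938), Pcp4 (0.9938), Ifnar1 (0.9934) and Tmem50b (0.9923). All 5 lie on chromosome 16 in the triplicated segment. Their profiles share the difference between the 2 groups with that of the members.

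The 2-copy genes of the pathways around the members were taken from 8 lists. Of 98 listed genes 97 were tested, and limma called 0 in either direction, while 6 (6.19%) had an unadjusted p under 0.05, as had 8.19% of all tested named genes. Their median difference was 0, with 49 genes above 0, beside -0.01 over all tested probes. In the inositol and osmolyte list around Slc5a3, 0 of 12 were called by limma, 2 had an unadjusted p under 0.05, and the median was 0.05. The gene with the smallest p was Slc5a11, the other sodium-coupled transporter of inositol in the list. It read -3.16, -2.67, -3.07 and -2.76 in wild type and -3.45, -3.97, -3.46 and -3.26 in Ts1Cje. Every Ts1Cje array lay below every wild-type array, as for 4 of the 97 tested genes of the lists and 1170 of the 32596 tested probes. The difference of Slc5a11 was -0.62 (SE 0.17, limma adjusted p = 0.359). Isyna1, which makes inositol phosphate from glucose phosphate, differed by 0.14, and Nfat5, the factor of the osmotic response, by 0.26.

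Around Cbr1 and Cbr3, limma called 0 of 11 carbonyl-reducing or prostaglandin-handling genes, 1 had an unadjusted p under 0.05, and the median was 0.06. Ptgr1, a reductase of prostaglandins and leukotrienes, differed by 0.43 (SE 0.17, limma adjusted p = 0.542), with Ts1Cje replicate 2 at -0.89 and the other Ts1Cje arrays from -1.62 to -1.51. All wild-type arrays of Ptgr1 were lower, from -2 to -1.69. In the list around Hlcs, 0 of 9 genes were called by limma, with 0 at an unadjusted p under 0.05. The biotin-dependent carboxylases differed by -0.09 (Pccb) to 0.35 (Acacb), and the biotin-releasing enzyme Btd by -0.12 (limma adjusted p = 0.631). Of the genes of GPI anchor synthesis and attachment, limma called 0 of 21, 2 had an unadjusted p under 0.05, and the median was -0.01. Those with an unadjusted p under 0.05 were Pigt, a subunit of the transamidase that attaches the anchor (0.17, limma adjusted p = 0.55), and Pigl, the deacetylase after the Pigp step (0.59, limma adjusted p = 0.555), which was well above background on 6 of the 8 arrays. Piga, the catalytic subunit of the Pigp enzyme, differed by -0.26 with overlapping groups.

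Among Akt kinases and ubiquitin enzymes around Ttc3, limma called 0 of 11, with 0 at an unadjusted p under 0.05, and the differences ran from -0.06 to 0.1, with Akt1 at -0.06 and Akt2 at 0.1. Among Commander and retromer genes around Vps26c, limma called 0 of 19, with 0 at an unadjusted p under 0.05, and the median was -0.01. The retriever partners of Vps26c, Vps35l and Vps29, differed by 0.05 and 0.01. Of the genes around Dop1b, limma called 0 of 5, with 0 at an unadjusted p under 0.05, and Mon2 differed by 0.12 (limma adjusted p = 0.778). In the list for insertion of tail-anchored proteins, limma called 0 of 10, and 1 had an unadjusted p under 0.05. That was Get3, the ATPase that hands these proteins to Get1, at -0.2 (SE 0.07, limma adjusted p = 0.494), with overlapping groups. Caml, the partner of Get1 in the receptor, differed by 0.11 (limma adjusted p = 0.63). Its groups barely separated, as the highest wild-type and the lowest Ts1Cje array both read 2.78.

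**Figure D4:**
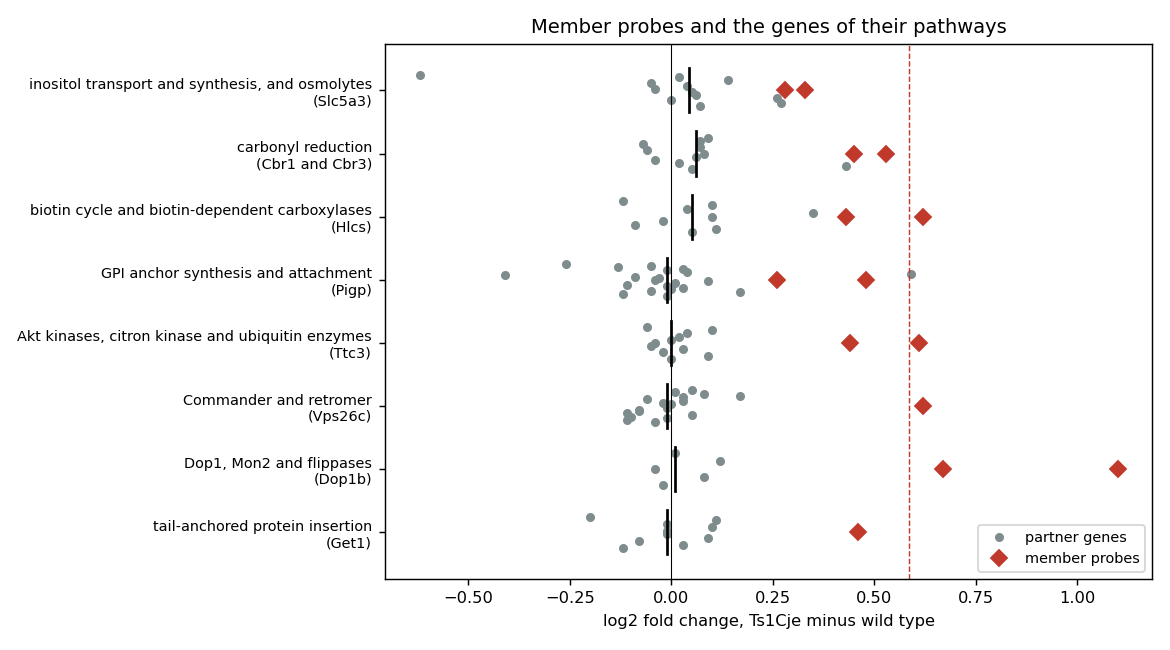
Difference on the log2 scale, Ts1Cje minus wild type, of each tested 2-copy gene of the 8 pathway lists (circles, 1 brightest probe per gene, black bar at the median) and of the member probes they surround (diamonds). The list medians lie between -0.01 and 0.06, and the dashed line marks 0.58.

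In the promoter windows as a group, the 14 windows of the 9 genes held 11 to 42 CG dinucleotides, where the median of all 32851 windows was 7. At least 20 were found in 11 of the 14, against 26.5% of all windows. GGGCGG was found in 11 member windows, of 7 genes, and in 35.7% of all windows, CCAAT in 5 windows of 4 genes and in 37.4% of all. TGACNNNGC was found in 2 windows, of Dop1b and Get1, and TATAAA in 0, against 13.6% of all windows. All letters were searched on both strands, and several windows of 1 gene, or of Ttc3 and Pigp, share bases.

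The calls changed with single arrays and with the settings. With 1 array left out at a time, between 0 and 7 member probes were called. The count was 0 when wild-type replicate 1 or Ts1Cje replicate 2, 3 or 4 was omitted. It was 1 when wild-type replicate 2 was omitted, 2 on omission of Ts1Cje replicate 1 or wild-type replicate 4, and 7 on omission of wild-type replicate 3. The highest adjusted p was 0.114 for Cbr1, 0.0957 for Hlcs probe 2, 0.171 for Pigp probe 1, 0.0711 for Ttc3 probe 1, 0.183 for Vps26c, and 0.0711 and 0.178 for Dop1b probes 1 and 2. With every array kept, 0 member probes were called with no filter on dim probes, and 0 with replicate as a block. Cbr1 and Dop1b probe 1 thus lost their calls there too. No label ties a replicate number to a litter. The slide row as a block left 4 calls, and the remaining alternatives with every array gave 5 to 9. No member difference changed sign in any of the 18 alternative settings, and the median over the members stayed between 0.42 and 0.5.

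**Figure D5:**
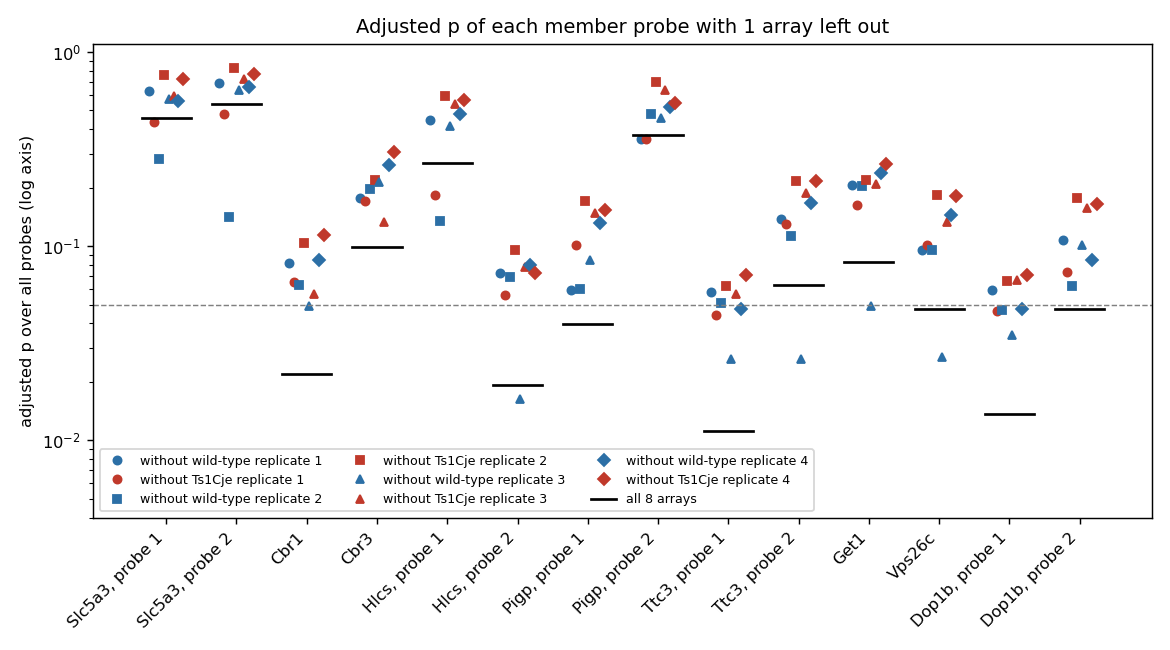
Benjamini-Hochberg adjusted p from limma over all tested probes (log axis) for each member probe, with all 8 arrays (black bar) and with each array left out in turn (symbols). Without wild-type replicate 3, 7 member probes lie below the dashed line at 0.05. Without any of 4 other arrays, all 14 lie above it.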

How the data were processed

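Cy3-labelled cRNA was made from 0.1 µg of total RNA per the labels' protocols. Agilent Feature Extraction 10.10.1.1 read the images, and the probe design is on mm9, per the file headers. The deposited files give each spot's intensity on a linear scale. They hold a processed signal, from which the software had removed background without normalizing between arrays, and the median signals of spot and background. A single slide, scanned once, carried the 8 arrays. Its row 1 held replicates 1 and 2, its row 2 replicates 3 and 4. Each slide column held a single genotype, so the effects of column and genotype cannot be told apart.

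Spots of controls and outlier spots were dropped, and 0 spots were saturated. The log2 processed signal was averaged per probe and centred on the array's 75th percentile over 55681 non-control probes. A probe was kept where a whole group was well above background (32596 probes), and all 14 member probes were so on all 8 arrays. RefSeq accessions named 27235 probes through a GRCm38.p6 table, used for names, gene order and promoter windows only, since the builds differ. Camlg and Pigy were matched as Caml and Pigyl. Probe 1 is the brighter probe of a gene.

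The comparison used limma 3.58.1 (lmFit, eBayes, no block) under R 4.3.3, with p-values adjusted over all kept probes. These p-values reflect the spread between replicates, which the labels number separately and which were treated as different mice. On simulated data of 32596 probes with 200 changed, the fit recovered 62% of 1.5-fold and 80% of 2-fold changes, with 9 false calls among 151. The simulated noise was independent between probes, and the real arrays gave 61 calls. These shares are therefore not the chance of a call for the member probes. The members and the lists were chosen with earlier results of these data known. The rule for named genes took the paralogs, Mrps6, the nearest tested neighbours, the called and the smallest-p gene of each pathway list, and the 5 genes most like the member mean. Pigl, Isyna1, Nfat5, Acacb, Pccb, Piga, Akt1, Vps35l, Vps29 and Caml were chosen after their values were seen. The alternatives tried were normexp with offset 50 (on median signals, as the mean signal was not among the columns used here), quantile normalization, centring on the array median, other filters and priors, array weights, replicate or slide row as a block, and each array left out.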

Additional observations from a re-analysis of the deposited data

Results flagged for a closer look

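In 80 sets of 4 arrays, the gap of the highest or lowest array to its nearest neighbour, as a share of the range, was compared with Dixon's critical value for 4 samples. Chance is expected to pass 4 sets, and 6 passed. Among the members, Ts1Cje replicate 1 was low on Hlcs probe 1 (-0.56 against -0.33 to -0.3; ratio 0.889). Ts1Cje replicate 2 was high on Pigp probe 1 by 0.02 (ratio 0.946), in a group whose other arrays read 3.37. Wild-type replicate 3 was low on Ttc3 probe 2 (0.36 against 0.7 to 0.77; ratio 0.832). Outside the members, Ts1Cje replicate 3 was low on the brighter Cbr4 probe (1.35 against 1.46 to 1.47; ratio 0.86), Ts1Cje replicate 1 was high on a Dop1a probe (-1.73 against -3.7 to -3.58; ratio 0.939), and Ts1Cje replicate 2 was high on Ptgr1 (-0.89 against -1.62 to -1.51; ratio 0.841).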

How the results depend on the processing

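Over all probes, limma made 61 calls. The count was 32 with the array median as centre, 3 with no filter on dim probes, 102 with array weights, 1 with the replicate block, and 1 to 51 with 1 array left out. Member probes called (7) were 0 with no filter, 0 with the replicate block and 4 with the slide row as a block. With 1 array left out they were 0 to 7. The adjusted p is set by all probes tested. In the fit of all 8 arrays, all 14 member probes had an unadjusted limma p under 0.05. So had 77.2% of the other 79 probes from Sod1 to the distal end and 8.44% of all tested probes. Member genes called (6) were 0 with no filter, 0 with the replicate block and 0 to 6 with 1 array left out. The member median of 0.47 was 0.42 with the array median as centre, which shifted the median of all probes to -0.057, and 0.47 to 0.5 with 1 array left out. Intervals that held 0.58 (9) numbered 7 with normexp, 10 with no filter and 9 to 11 with 1 array left out. Of the pathway and paralog genes, limma called 0 in all 18 settings, and with all 8 arrays 6 pathway genes had an unadjusted p under 0.05. Of 247 refits of member probes, 171 kept direction and side of the threshold, 67 lost the call, 9 gained it and 0 changed sign.

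The sign of the brightest Dop1a probe (0.01) turned with quantile normalization (-0.01), array median (-0.04), array weights (-0.0036), and on omission of wild-type replicate 2 (-0.03) or Ts1Cje replicate 3 (-0.02). That of Vps26a (-0.01) turned with quantile normalization (0.01), array weights (0.04) and without wild-type replicate 3 (0.05). The cause was not tested.

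The description gives 4 pairs of littermates, but no label ties a number to a litter. Within-group deviations of same-numbered arrays correlated at 0.069 to 0.218 and those of other arrays at -0.229 to 0.109, and 7 of 8 arrays correlated best with their own number. With the replicate block limma called 1 probe over all and 0 of the member probes.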
